A study of Mus musculus with 20 samples.

Results

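Solute carriers are the genes whose symbol starts with Slc followed by a digit, and 231 of them were held by at least 1 of the 2 count tables of this study. The table of GFP-low cells held 226 among its 11779 entries and the table of GFP-high cells 213 among its 11746, with 208 held by both. Transcripts were measured by RNA sequencing in small-intestinal crypt epithelium of C57BL/6J mice aged 8 weeks that carried an Lgr5-GFP reporter. The groups were Itgb7-/- (knockout, KO) GFP-low cells, Itgb7+/+ (wild type, WT) GFP-low cells, KO GFP-high cells and WT GFP-high cells, with 5 mice each. GFP-low cells are labelled transit-amplifying (TA) cells and GFP-high cells stem cells, both sorted from living EpCAM+ cells after gating out CD45, CD31 and TER119. Both populations were taken from each mouse, so libraries are separate mice within a group and the same mice across populations. Every group carried Lgr5-GFP, and the deletion was not limited to the epithelium by anything the labels state. Itgb7 itself, the integrin beta 7 subunit of gut-homing lymphocytes, is not analysed here and gives no check of the genotypes.

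Solute carriers are membrane proteins that move sugars, amino acids, ions, vitamins, lipids and nucleotides across the plasma membrane or the membranes of organelles. Absorptive enterocytes of the small intestine carry them on the brush border, where many are driven by the sodium or proton gradient, and on the basolateral membrane, where others pass nutrients on to the blood. Members in the Golgi apparatus bring in nucleotide sugars for glycosylation, and those of the Slc25 family exchange metabolites across the inner mitochondrial membrane. Crypt cells divide and mature as they move towards the villus, which is the setting of the comparison of GFP-low with GFP-high cells.

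By the substrate best known for each family, the members fell into 12 classes of transporters. A further 4 genes have a symbol of this form but are no transporters (Slc9a3r1 and Slc9a3r2, scaffold proteins that bind transporters, Slc4a1ap and Slc7a6os). All members passed the filter on low counts in each comparison that held them. Exons of 31 members overlap a protein-coding gene, among them Slc6a20a with Ccr9, Slc51a with Pcyt1a, Slc51b with Rasl12, Slc3a1 with Prepl, Slc7a7 with Oxa1l, Slc25a35 with Rangrf and Slc16a6 with Arsg. The strand of the libraries is not given in the sources used here, so reads of such pairs cannot be told apart.

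Library totals ran from 20900404 to 27838392 counts. The summed level of 6 stem cell markers was 469 to 856 normalised counts (CPM, counts scaled to a common library size) in KO GFP-low and 405 to 874 CPM in WT GFP-low libraries, against 3485 to 4283 CPM in KO GFP-high and 3250 to 4602 CPM in WT GFP-high libraries. The 8 enterocyte markers summed to 1589 to 2583 CPM in KO GFP-low and 2166 to 3953 CPM in WT GFP-low libraries, against 371 to 637 and 428 to 512 CPM in KO and WT GFP-high libraries, whose table held 7 of them. The median summed level of Paneth, goblet and enteroendocrine cell markers was also higher in GFP-low cells. The WT GFP-low libraries of mice 3 and 8 stood apart, with 165036 and 166104 CPM for 7 Paneth cell markers, against 35720 to 69105 CPM in the other WT GFP-low libraries. The part of these WT libraries in the results below was not tested except by leaving both libraries out. KO GFP-low mouse 2 also stood apart, with 15012 CPM for the Paneth markers, against 50310 to 78507 CPM in the other KO GFP-low libraries. Its enterocyte markers summed to 2583 CPM, against 1589 to 2086 CPM in those libraries. The part of KO GFP-low mouse 2 in the results was not tested except by leaving out single libraries. Of 8 leukocyte markers the tables held Lyz2 alone, and of 6 markers of endothelium and stroma Vim alone. These are bulk samples, in which more cells of a type and more RNA per cell cannot be told apart.

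Solute carriers made up 1.26 ± 0.0863% of the counts in KO GFP-low, 1.15 ± 0.152% in WT GFP-low, 1.21 ± 0.0505% in KO GFP-high and 1.18 ± 0.0765% in WT GFP-high libraries (mean ± SD, n = 5 each, as in all means below). A single gene, Slc25a5, which encodes the adenine nucleotide translocase 2 of the inner mitochondrial membrane, supplied between 31.7% and 35.3% of the summed solute carrier CPM in each group. Per kilobase of annotated exon it reached 2627 ± 147 CPM in KO GFP-low, 2586 ± 306 in WT GFP-low, 2298 ± 146 in KO GFP-high and 2279 ± 196 in WT GFP-high cells. The next in order was the zinc importer Slc39a1, at 226 ± 40.8 and 271 ± 54.2 CPM per kilobase in KO and WT GFP-low cells and 222 ± 32.8 and 217 ± 43.2 in KO and WT GFP-high cells. The median member lay at 3.17 CPM per kilobase in KO GFP-low cells and 2.79 in KO GFP-high cells. Slc25a5 has close relatives and processed copies in the mouse genome, among which the counting program divides shared reads, so its level is uncertain.

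The first comparison asked which solute carriers differ between GFP-low and GFP-high cells. In both genotypes, more members rose than fell among transporters of sugars, amino acids, bile acids and organic ions, metals, nucleotide sugars and lipids. The same held for orphan members and for mitochondrial carriers, although in WT mice 22.2% of the latter rose, beside 22.0% of all entries. It did not hold in both genotypes for carboxylate, vitamin, inorganic ion and nucleoside transporters. The members that fell included glutamate, chloride, urea, monocarboxylate and nucleoside transporters, although other glutamate, chloride, monocarboxylate and nucleoside transporters rose. In KO mice, 100 of the 208 members rose, 31 fell and 77 did not pass (edgeR quasi-likelihood test, Benjamini-Hochberg adjusted p under 0.05 over all entries). Of all 11294 entries tested there, 26.2% rose and 24.4% fell, 50.5% in either direction. In WT mice, 82 rose, 29 fell and 97 did not pass, where 22.0% of all entries rose and 21.4% fell, 43.4% in either direction. The members' median log2 fold change was 0.35 in KO and 0.28 in WT mice, beside -0.01 for all entries in each. The tests behind these calls did not pair the populations of a mouse.

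**Figure D1:**
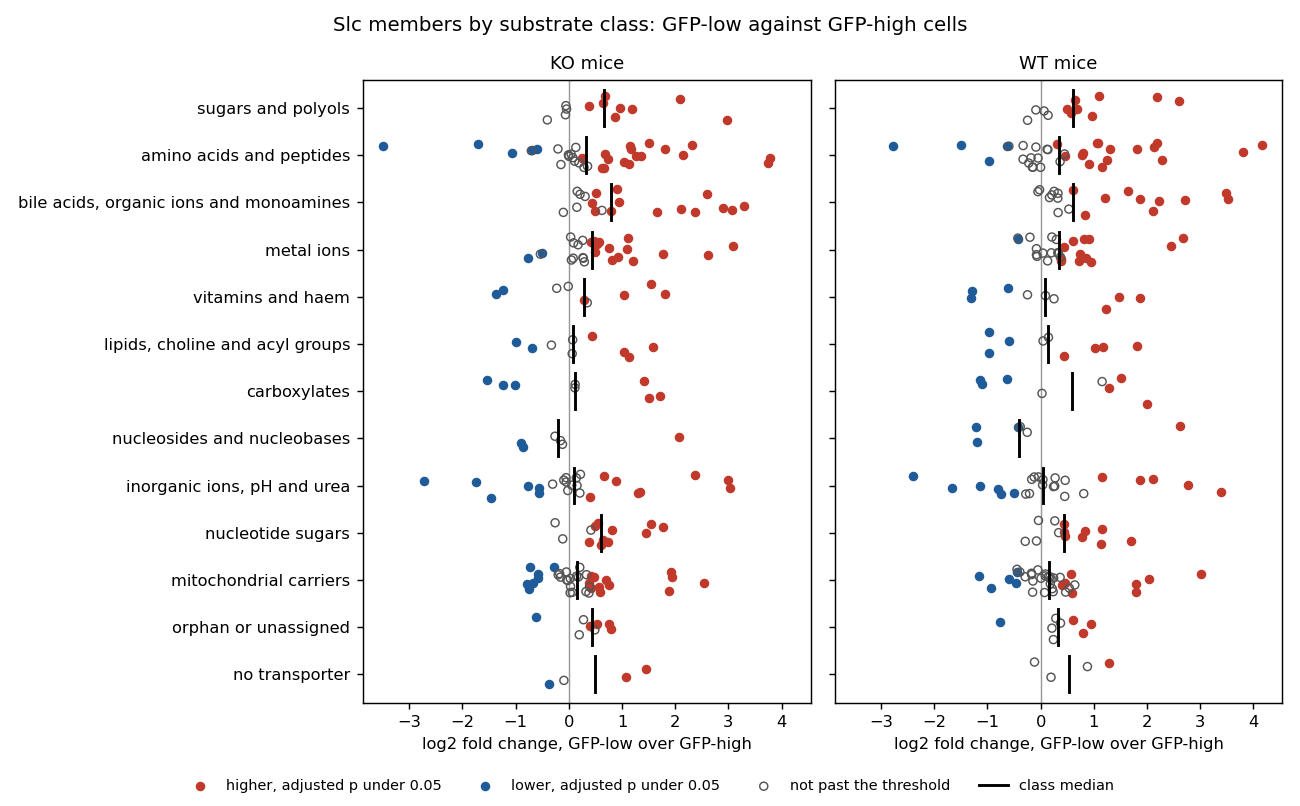
Log2 fold change of each solute carrier, GFP-low over GFP-high cells, in KO (left) and WT mice (right), by substrate class. Each point is a gene, filled where the adjusted p was under 0.05, and the bar is the class median. No sugar, bile acid or organic ion, or nucleotide sugar transporter was called lower in either genotype in the test shown. With each mouse as a block, the sugar transporter Slc2a8 and the nucleotide sugar class member Slc35b3 were called lower in KO mice.

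The same 79 of 208 members rose in both genotypes, and 25 fell in both. The 79 are 79.0% of those that rose in KO and 96.3% of those that rose in WT mice. None changed in opposite directions. Of all 11292 entries tested in both genotypes, 2219 rose in both, 1969 fell in both and 0 changed in opposite directions. Of the 79 members, 73 were higher in the GFP-low cells of all 10 mice, and 45 at least doubled in both genotypes by the fitted fold change. Of the 25 that fell, 23 were lower in all 10 mice and 8 fell by a log2 value of at least 1 in both. Both sets were called on these same mice, so agreement among the mice follows in part from the selection. The share among all called entries was not counted. The CPM of the GFP-low libraries lay wholly above that of the GFP-high libraries for 79 members in KO and 69 in WT mice, where 18.1% and 15.0% of all entries did so, and wholly below for 20 and 24, where 17.3% and 13.7% of all entries did so. Without WT GFP-low mice 3 and 8, 74 members rose and 22 fell in WT mice, and 95 of the 111 calls were kept. Of all entries, 1994 rose and 1643 fell in that fit.

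Scaling to library totals in place of TMM moved the median of all entries to -0.27 in KO and -0.37 in WT mice. The members then had medians of 0.09 and -0.07, which is 0.36 and 0.30 above all entries, with 77 rises and 48 falls in KO and 53 rises and 50 falls in WT mice. Of all entries, 1778 then rose and 4738 fell in KO mice (of 11294), and 1188 rose and 4895 fell in WT mice (of 11293). The taurine transporter Slc6a6, which rose under TMM, had values of -0.01 in KO and -0.03 in WT mice under that scaling, and its call was lost. By class, it left 7 rises and 1 fall of sugar transporters in KO and 3 rises and no fall in WT mice, 9 and 8 rises and no fall of bile acid and organic ion transporters, and 8 rises and 1 fall in KO and 4 rises and 1 fall in WT mice of nucleotide sugar transporters. Metal transporters then had 10 rises and 3 falls in KO and 7 rises and 3 falls in WT mice. The class median turned negative for carboxylates (-0.15), inorganic ions (-0.18), lipids (-0.19) and mitochondrial carriers (-0.10) in KO mice. In WT mice it turned negative for amino acids (-0.01), inorganic ions (-0.30), lipids (-0.21), metals (-0.02), mitochondrial carriers (-0.19), orphans (-0.03) and vitamins (-0.23). Changes below are relative to the typical gene under TMM. Members described beyond the rule for named genes were picked after their values were seen.

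Among the 12 sugar and polyol transporters tested, 8 rose in KO and 8 in WT mice and none was called lower, with medians of 0.66 and 0.61. With each mouse as a block, Slc2a8 was called lower in KO mice (-0.43, edgeR adjusted p = 0.0253). Slc2a5 (GLUT5), the brush border fructose transporter, had 27.4, 33.2, 39.7, 34.2 and 31.1 CPM in KO GFP-low cells, against 6.14, 8.60, 8.96, 9.58 and 5.94 CPM in KO GFP-high cells. The WT GFP-low libraries held 32.0, 33.5, 42.0, 35.8 and 42.4 CPM, against 7.79, 8.42, 8.41, 7.05 and 8.95 CPM in WT GFP-high libraries. No GFP-low library overlapped a GFP-high one, and the log2 fold change was 2.09 ± 0.16 (SE) in KO and 2.19 ± 0.12 in WT mice (edgeR adjusted p = 2.31e-07 and 1.40e-07). Slc5a1 (SGLT1), the sodium-driven glucose and galactose transporter of the brush border, differed less. It had 125, 105, 104, 95.6 and 94.8 CPM in KO GFP-low, against 67.0, 71.1, 61.3, 60.1 and 68.3 in KO GFP-high cells, and 106, 126, 163, 142 and 109.7 CPM in WT GFP-low, against 58.9, 68.3, 82.1, 113 and 92.8 in WT GFP-high cells. The groups overlapped in WT mice, and the log2 fold change was 0.69 ± 0.09 in KO and 0.64 ± 0.17 in WT mice (edgeR adjusted p = 3.63e-05 and 0.0102). Under library totals the WT value was 0.30 and its call was lost.

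The largest rise of the sugar class was that of Slc2a10 (GLUT10), a facilitative transporter of internal membranes, with 15.6 ± 3.98 CPM in KO GFP-low cells and 1.99 ± 0.670 in KO GFP-high cells (log2 2.98 ± 0.26), and 14.4 ± 5.97 CPM in WT GFP-low cells and 2.36 ± 1.02 in WT GFP-high cells (log2 2.61 ± 0.33). Slc50a1, the mammalian SWEET sugar transporter, rose by log2 1.18 ± 0.17 in KO and 1.10 ± 0.18 in WT mice. Slc2a1 (GLUT1), the basolateral and ubiquitous glucose transporter, rose by 0.97 ± 0.17 in KO and 0.97 ± 0.30 in WT mice. The WT call of Slc2a1 was lost without GFP-low mouse 1 (0.76), without GFP-low mice 3 and 8 (0.96) and under library totals (0.62). Slc37a4, the glucose-6-phosphate transporter of the endoplasmic reticulum, rose as well (0.86 ± 0.11 and 0.69 ± 0.12). Slc2a2 (GLUT2), through which hexoses leave the enterocyte, was held by the GFP-low table alone, at 6.50, 3.44, 8.75, 6.81 and 3.84 CPM in KO and 6.49, 13.3, 10.5, 9.59 and 7.30 CPM in WT cells. The same was true of Slc5a11, a sodium-inositol cotransporter, at 6.15 ± 2.58 CPM in KO and 8.85 ± 2.35 CPM in WT GFP-low cells.

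**Figure D2:**
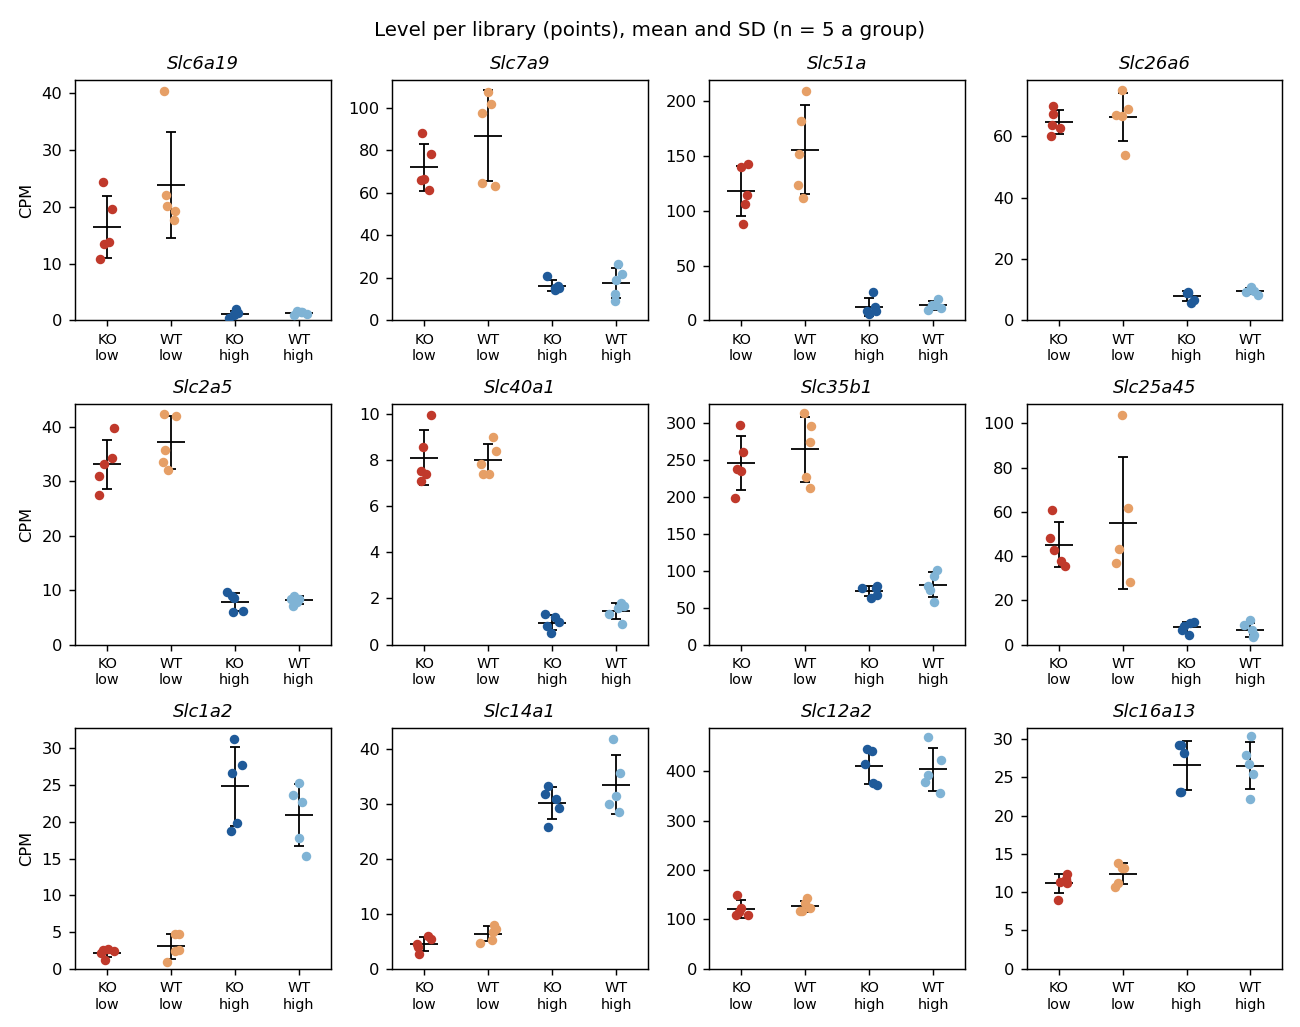
Level of 12 solute carriers in each library, in CPM, for KO and WT GFP-low and KO and WT GFP-high cells. Points are libraries, and the bar and whiskers are the mean and SD of 5. The upper 8 were higher in GFP-low cells and the lower 4 (Slc1a2, Slc14a1, Slc12a2 and Slc16a13) were lower, without overlap between populations in either genotype.

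Of the 34 amino acid and peptide transporters, 17 rose and 5 fell in KO mice, and 16 rose and 4 fell in WT mice. Those that rose included the carriers that take up neutral and dibasic amino acids at the brush border, and those that fell included glutamate transporters. Slc6a19 (B0AT1), the main brush border transporter of neutral amino acids, was measured at 24.3, 13.4, 19.5, 10.8 and 13.8 CPM in KO GFP-low cells, against 1.97, 0.503, 1.01, 1.31 and 1.13 CPM in KO GFP-high cells. Its WT levels were 19.3, 22.0, 40.3, 20.1 and 17.7 CPM in GFP-low cells, against 1.44, 1.06, 1.56, 1.66 and 0.902 CPM in GFP-high cells. The populations did not overlap and WT GFP-low mouse 6 was the highest library. The log2 fold change, 3.79 ± 0.31 in KO and 4.16 ± 0.27 in WT mice (edgeR adjusted p = 4.57e-07 and 4.45e-07), was the highest of all members tested in each genotype. Slc6a20a, an imino acid transporter whose exons overlap those of Ccr9, followed with 3.75 ± 0.39 and 3.81 ± 0.30.

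Slc7a9 is the light chain of the brush border exchanger of cystine and dibasic amino acids, and Slc3a1 (rBAT) is its heavy chain. Slc7a9 had 88.2, 66.4, 78.2, 61.2 and 65.8 CPM in KO GFP-low, against 20.8, 15.3, 15.1, 16.1 and 14.4 CPM in KO GFP-high cells. In the WT mice these libraries held 63.2, 107, 102, 97.5 and 64.3 CPM, against 8.94, 18.9, 26.6, 21.6 and 12.6 CPM in GFP-high cells. Every GFP-low library was above every GFP-high one. Both chains rose in both genotypes, Slc7a9 by log2 2.15 ± 0.13 in KO and 2.29 ± 0.27 in WT mice and Slc3a1 by 1.16 ± 0.13 and 1.25 ± 0.20. Some basolateral partners rose too. Slc3a2 (4F2hc), the heavy chain of the basolateral exchangers, gave 0.66 ± 0.15 in KO and 0.92 ± 0.11 in WT mice, and its light chains Slc7a7 and Slc7a8 gave 1.17 ± 0.08 and 1.13 ± 0.18 in KO and 1.09 ± 0.15 and 0.81 ± 0.23 in WT mice. The WT value of Slc7a8 was 0.48 under library totals, where its call was lost. Another light chain, Slc7a5 (LAT1), did not pass in either genotype (-0.15 ± 0.14 and -0.33 ± 0.17), and under library totals it was called lower (-0.42 and -0.67). Also uncalled was Slc1a5 (ASCT2), a glutamine exchanger, at -0.20 ± 0.14 in KO and -0.33 ± 0.16 in WT mice, although with each mouse as a block the WT fall of -0.33 had an adjusted p of 0.00295 (edgeR). Slc1a5 was called lower in KO mice without GFP-low mouse 5 (-0.34), and in both genotypes under library totals (-0.48 and -0.67). The peptide transporter Slc15a1 is not analysed here. The creatine transporter Slc6a8 rose by 1.51 ± 0.14 and 1.82 ± 0.22, and the neutral amino acid carrier Slc43a2 (LAT4) by 2.32 ± 0.23 and 2.20 ± 0.26.

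The glutamate transporters moved in different directions. Slc1a1 (EAAC1), the glutamate and aspartate transporter of enterocytes, rose by 0.67 ± 0.15 in KO and 0.78 ± 0.17 in WT mice, with a WT value of 0.45 and no call under library totals. Slc1a2 (GLT-1), known for clearing glutamate at synapses in brain, lay lower in every GFP-low than in any GFP-high library. It had 2.42, 2.61, 2.15, 1.16 and 2.62 CPM in KO GFP-low, against 18.8, 31.2, 26.6, 19.8 and 27.7 CPM in KO GFP-high cells. Its WT libraries held 4.75, 4.70, 2.35, 2.51 and 0.905 CPM in GFP-low, against 23.6, 17.8, 22.7, 25.3 and 15.3 CPM in GFP-high cells. Slc1a2 fell by 3.49 ± 0.22 on the log2 scale in KO and by 2.78 ± 0.33 in WT mice (edgeR adjusted p = 6.89e-08 and 4.33e-05), the lowest value of all members in each. Slc1a3 (GLAST), its relative in glia, fell by 1.06 ± 0.16 in KO and by 0.96 ± 0.14 in WT mice. Slc16a10 (TAT1), a carrier of aromatic amino acids, gave -0.69 ± 0.18 in KO and -0.64 ± 0.17 in WT mice, and its WT call was lost without GFP-low mice 3 and 8 (-0.51). The cationic amino acid transporter Slc7a2 fell as well (-1.71 ± 0.24 and -1.503 ± 0.27), whereas its relative Slc7a1 did not pass (0.04 ± 0.08 and 0.14 ± 0.11).

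Promoters of 3 of these amino acid transporters are shown because they include the member that rose most, the member that fell most and one that holds a searched motif. RefSeq (GRCm38.p6) gave a promoter for 177 of the 231 members, of which the 250 bases before the annotated start were searched on both strands. The motifs were CAAAGTCCA, a binding sequence of the enterocyte factor HNF4, and ATCAAAG, a core binding sequence of the TCF factors of the Wnt pathway. The motifs share the letters CAAAG, so a single stretch can hold both, and capitals mark either of them or its reverse complement.
Slc6a19 (chr13:73692637-73692886, minus strand): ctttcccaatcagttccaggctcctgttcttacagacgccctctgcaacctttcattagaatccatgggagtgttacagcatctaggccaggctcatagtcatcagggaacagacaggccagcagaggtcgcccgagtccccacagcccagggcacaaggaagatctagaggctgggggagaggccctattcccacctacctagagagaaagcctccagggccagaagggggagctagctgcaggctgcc
Slc3a1 (chr17:85028097-85028346, plus strand): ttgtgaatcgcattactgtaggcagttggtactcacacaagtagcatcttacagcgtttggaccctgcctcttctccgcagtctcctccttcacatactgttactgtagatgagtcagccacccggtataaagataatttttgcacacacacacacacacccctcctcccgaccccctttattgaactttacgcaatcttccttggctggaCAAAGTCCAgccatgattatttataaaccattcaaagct
Slc1a2 (chr2:102706188-102706437, plus strand): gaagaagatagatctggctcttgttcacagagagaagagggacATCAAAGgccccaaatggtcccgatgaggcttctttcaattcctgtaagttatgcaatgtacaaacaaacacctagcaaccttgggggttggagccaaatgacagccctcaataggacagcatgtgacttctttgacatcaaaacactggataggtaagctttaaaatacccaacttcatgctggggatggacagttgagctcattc
The HNF4 motif stood in the promoter of Slc3a1 and of no other member, which is 1 of the 61 members with a promoter that rose in both genotypes (1.64%), beside 0.451% of 27025 genes. The TCF motif stood in 3 of the 19 that fell in both (15.8%: Slc1a2, Slc25a28 and Slc27a1), in 3 of the 61 that rose (4.92%) and in 3.72% of all genes. The promoter of Slc6a19 held neither. A match is a description of these letters and not of binding.

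Among 19 transporters of bile acids, organic ions and monoamines, 13 rose in KO and 10 in WT mice and none fell, with medians of 0.79 and 0.62. Slc51a and Slc51b encode the subunits of the basolateral bile acid exporter OST alpha and beta. Slc51a had 142, 87.6, 114, 139.5 and 106 CPM in KO GFP-low, against 26.3, 5.70, 8.17, 11.9 and 8.27 CPM in KO GFP-high cells. WT GFP-low libraries gave 111, 209, 182, 152 and 123 CPM, against 11.7, 13.7, 19.9, 14.4 and 9.54 CPM in WT GFP-high libraries. Every GFP-low library was above every GFP-high one, with a log2 fold change of 3.30 ± 0.34 in KO and 3.49 ± 0.22 in WT mice (edgeR adjusted p = 3.34e-06 and 3.89e-07). Slc51b, at 9.55 ± 2.82 CPM in KO GFP-low cells and 1.30 ± 1.03 CPM in KO GFP-high cells, rose by 2.89 ± 0.41 in KO and 3.53 ± 0.38 in WT mice. Both share exons with a neighbouring gene, and the ileal uptake carrier Slc10a2 is not analysed here.

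Slc17a9, which loads vesicles with ATP, had 29.1 ± 12.3 CPM in KO GFP-low cells and 3.496 ± 1.93 CPM in KO GFP-high cells, and 27.8 ± 12.8 CPM in WT GFP-low cells and 4.26 ± 1.49 CPM in WT GFP-high cells (log2 3.07 ± 0.41 and 2.71 ± 0.34). Slc18a1 (VMAT1), the vesicular monoamine transporter of enterochromaffin cells, had 7.13, 23.2, 15.6, 14.8 and 15.2 CPM in KO GFP-low, against 2.45, 2.47, 1.71, 4.68 and 1.39 CPM in KO GFP-high cells. WT libraries held 19.6, 9.70, 13.6, 13.1 and 24.8 CPM in GFP-low, against 3.73, 5.16, 2.72, 2.53 and 3.22 CPM in GFP-high cells. The populations did not overlap, and it rose by 2.59 ± 0.34 in KO and 2.22 ± 0.27 in WT mice. Markers of enteroendocrine cells moved with it, since all 7 were in the GFP-low table and summed to 881 to 2102 CPM in KO and 1039 to 2464 CPM in WT GFP-low libraries, against 107 to 176 and 118 to 523 CPM for the 6 held in KO and WT GFP-high libraries. Their part in the result was not tested. The related vesicular transporter Slc18a2 (VMAT2), did not pass (0.62 ± 0.30 and 0.33 ± 0.29). The serotonin transporter Slc6a4 gave 0.79 ± 0.12 in KO, where it passed, and 0.32 ± 0.16 in WT mice, where it passed only with each mouse as a block (edgeR adjusted p = 0.0208).

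Of 26 metal ion transporters, 14 rose and 2 fell in KO mice, and 12 rose and 1 fell in WT mice. Slc40a1 (ferroportin), which exports iron to the blood, had 8.56, 7.51, 7.39, 7.09 and 9.96 CPM in KO GFP-low, against 1.32, 0.797, 0.483, 1.20 and 0.969 CPM in KO GFP-high cells. The corresponding WT values were 8.37, 7.81, 7.40, 7.38 and 8.99 CPM in GFP-low, against 0.889, 1.79, 1.32, 1.66 and 1.57 CPM in GFP-high cells. All GFP-low libraries were above all GFP-high ones, and the log2 fold change was 3.08 ± 0.24 in KO and 2.45 ± 0.20 in WT mice (edgeR adjusted p = 3.33e-07 and 2.74e-06). The apical iron importer Slc11a2 (DMT1) was higher by far less, at 0.54 ± 0.08 in KO and 0.38 ± 0.12 in WT mice, and under library totals the WT value was 0.02 with no call. Slc39a4 (ZIP4), the apical zinc importer, rose by 0.92 ± 0.12 and 0.60 ± 0.13 (0.25 with no call in WT mice under library totals), and Slc39a7 and Slc30a7, zinc transporters of the secretory pathway, by 1.11 ± 0.16 and 1.09 ± 0.13 in KO and 0.95 ± 0.12 and 0.92 ± 0.13 in WT mice. Slc39a11 rose by 1.21 ± 0.15 and 0.85 ± 0.17. Slc30a2 (ZnT2), which loads zinc into secretory granules, was lower, at 31.4 ± 8.80 CPM in KO GFP-low cells and 44.8 ± 8.12 CPM in KO GFP-high cells, and 37.3 ± 8.17 CPM in WT GFP-low cells and 49.7 ± 3.19 CPM in WT GFP-high cells. Its log2 values of -0.50 ± 0.20 and -0.42 ± 0.14 passed by little. The call was lost without any 1 of KO GFP-high mice 3, 4, 5 and 6, KO GFP-low mice 2 and 5, WT GFP-high mice 6 and 8 and WT GFP-low mice 1, 6 and 7, with values between -0.61 and -0.35 over all libraries left out. The zinc importer Slc39a1, highest of the class per kilobase of exon, did not pass (0.03 ± 0.13 and 0.32 ± 0.16), but in WT mice it did with each mouse as a block (0.32, edgeR adjusted p = 0.0447). Slc31a1 (CTR1), the copper importer, rose by 0.76 ± 0.10 and 0.82 ± 0.11.

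**Figure D3:**
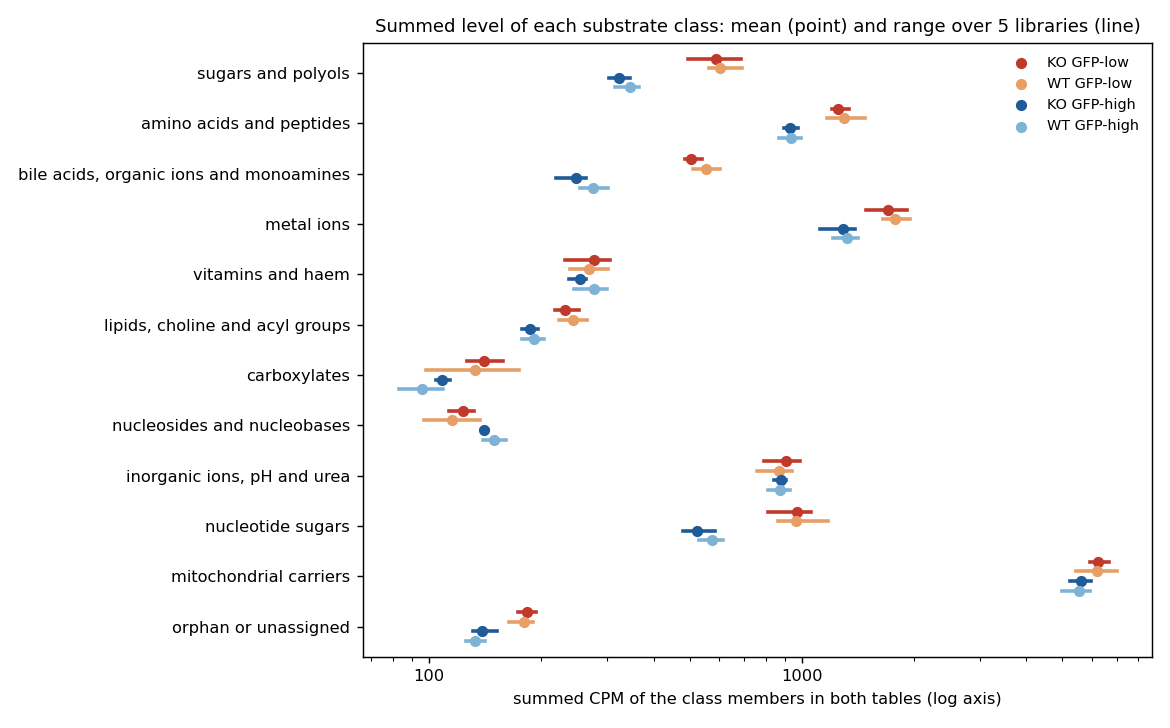
Summed CPM of the members of each substrate class held by both tables, on a log axis. Points are means and lines the range over 5 libraries for KO GFP-low, WT GFP-low, KO GFP-high and WT GFP-high cells. In both genotypes the sums of amino acid, sugar, bile acid and organic ion, metal, lipid, nucleotide sugar and orphan members were higher in GFP-low cells without overlap, and that of nucleoside transporters was lower. This holds under TMM scaling, and how often sums of other genes separate was not counted. The share of unscaled counts of all members overlapped, at 1.17% to 1.40% in KO GFP-low and 1.14% to 1.28% in KO GFP-high libraries. In WT mice it was 0.953% to 1.31% in GFP-low and 1.10% to 1.26% in GFP-high libraries.

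Vitamin carriers split, with 4 rises and 2 falls in KO mice and 3 of each in WT mice among 9. Slc46a1 (PCFT), the proton-driven folate transporter of the brush border, rose by 1.04 ± 0.13 in KO and 1.48 ± 0.22 in WT mice, to 15.1 ± 2.51 CPM in KO GFP-low, against 7.41 ± 0.562 CPM in KO GFP-high cells. Slc19a1, the reduced folate carrier, was lower in WT mice, with 73.8 ± 15.3 CPM in GFP-low and 113 ± 13.6 CPM in GFP-high cells (-0.61 ± 0.14), and did not pass in KO mice (-0.23 ± 0.14; with each mouse as a block -0.25, edgeR adjusted p = 0.0376, and under library totals -0.50, called lower). The riboflavin transporter Slc52a3 rose by 1.81 ± 0.20 and 1.23 ± 0.18, and the vitamin C transporter Slc23a2 by 1.55 ± 0.20 and 1.87 ± 0.22. Slc23a3, a member of the vitamin C transporter family, fell by 1.24 ± 0.17 in KO and by 1.30 ± 0.13 in WT mice, and the thiamine transporter Slc19a2 by 1.37 ± 0.13 and 1.29 ± 0.18.

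Of 9 lipid, choline and acyl group transporters, 4 rose in each genotype, 2 fell in KO and 3 in WT mice. The fatty acid transport proteins moved apart. Slc27a4 (FATP4), the main form in enterocytes, had 47.5 ± 8.62 CPM in KO GFP-low cells and 16.04 ± 4.48 CPM in KO GFP-high cells, and 57.0 ± 17.9 CPM in WT GFP-low cells and 16.3 ± 2.15 CPM in WT GFP-high cells (log2 1.58 ± 0.18 and 1.81 ± 0.19). Slc27a2 (FATP2), known from liver and kidney, fell by 0.99 ± 0.13 and by 0.98 ± 0.14. Slc27a1 (FATP1), known from muscle and fat, gave -0.70 ± 0.24 and -0.98 ± 0.13, with KO values of -0.67, -0.65 and -0.62 and no call without GFP-high mice 3, 5 and 6 in turn. Slc33a1, which brings acetyl-CoA into the endoplasmic reticulum, and the choline-like transporter Slc44a4 each rose by over 1 in both genotypes (1.04 ± 0.12 and 1.17 ± 0.22; 1.14 ± 0.14 and 1.02 ± 0.15).

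Among 8 carboxylate transporters, 3 rose and 3 fell in each genotype. The monocarboxylate transporter relatives Slc16a5 and Slc16a6 rose, Slc16a5 by 1.71 ± 0.23 in KO and 1.99 ± 0.44 in WT mice and Slc16a6 by 1.41 ± 0.13 and 1.52 ± 0.24. Slc16a13, another relative, had 9.01, 11.4, 12.3, 11.7 and 11.2 CPM in KO GFP-low, against 23.0, 28.2, 23.1, 29.2 and 29.3 CPM in KO GFP-high cells. WT GFP-low libraries held 11.2, 13.2, 13.2, 13.8 and 10.7 CPM, against 25.4, 22.2, 27.9, 30.4 and 26.8 CPM in WT GFP-high libraries. It fell by 1.24 ± 0.12 in KO and by 1.10 ± 0.12 in WT mice, without overlap. Slc16a1 (MCT1), the main lactate and butyrate transporter, did not pass, with values of 0.12 ± 0.09 and 0.03 ± 0.12 whose sign turned under library totals (-0.13 and -0.31) and, in WT mice, without GFP-high mouse 6 or 8 or GFP-low mouse 6 or 7 (-0.03 to 0.10 over all libraries left out). Of 6 nucleoside transporters, 1 rose and 2 fell in KO mice, and 1 rose and 3 fell in WT mice. Slc28a3, a concentrative transporter of broad specificity, rose by 2.07 ± 0.24 and 2.62 ± 0.19. Slc28a2, the purine-preferring form, fell by 0.90 ± 0.13 and by 1.19 ± 0.20, and the equilibrative transporter Slc29a2 by 0.87 ± 0.28 and by 1.21 ± 0.21.

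Transporters of inorganic ions and urea held both rises and falls, 8 and 6 of 24 in KO and 5 and 6 in WT mice. With each mouse as a block, 8 rose and 5 fell in WT mice. Slc26a6 (PAT1), an apical exchanger of chloride, bicarbonate and oxalate, had 69.8, 67.3, 62.6, 63.7 and 60.1 CPM in KO GFP-low, against 8.87, 6.67, 5.75, 8.90 and 9.43 CPM in KO GFP-high cells. WT cells had 68.8, 67.0, 75.0, 66.7 and 53.8 CPM in the GFP-low, against 10.8, 8.28, 9.41, 9.68 and 10.3 CPM in the GFP-high population. No library of one population reached the other. The log2 fold change of 3.04 ± 0.13 in KO and 2.77 ± 0.12 in WT mice had the smallest adjusted p of all members in each (edgeR, 1.12e-08 and 3.38e-08). Slc26a3 (DRA), the chloride and bicarbonate exchanger that works beside sodium-proton exchange in salt absorption, rose by 1.34 ± 0.17 and 2.11 ± 0.19. Slc9a3 (NHE3), its sodium-proton partner, was held by the GFP-low table alone, at 6.77 ± 2.62 CPM in KO and 8.16 ± 3.72 CPM in WT cells. The other apical exchanger, Slc9a2, rose in KO mice (0.65 ± 0.16; 0.40 with no call under library totals) and gave 0.45 ± 0.18 in WT mice, where it passed with each mouse as a block (edgeR adjusted p = 0.0411) and also without GFP-high mouse 6 (0.54) or GFP-low mouse 8 (0.53). Sulfate transporters Slc13a1 and Slc26a2 rose by 2.99 ± 0.28 and 1.31 ± 0.11 in KO and 3.39 ± 0.24 and 1.15 ± 0.13 in WT mice. Slc12a8, a relative of the cation-chloride cotransporters reported in mouse intestine as a carrier of nicotinamide mononucleotide, rose to 224 ± 70.2 CPM in KO GFP-low, against 43.8 ± 12.004 CPM in KO GFP-high cells, and to 189 ± 71.6 CPM in WT GFP-low, against 51.6 ± 7.01 CPM in WT GFP-high cells (2.37 ± 0.25 and 1.87 ± 0.22).

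The ion transporters that fell were led by Slc12a2 (NKCC1), the basolateral sodium, potassium and chloride cotransporter that supplies chloride for secretion, and Slc14a1 (UT-B), a urea transporter. Slc12a2 had 108, 150.3, 123, 114 and 108 CPM in KO GFP-low, against 372, 446, 441, 377 and 414 CPM in KO GFP-high cells. Among WT libraries it had 132, 117, 123, 144 and 117 CPM in GFP-low, against 378, 357, 422, 469.6 and 394 CPM in GFP-high cells. Slc14a1 had 5.96, 5.50, 3.93, 2.76 and 4.54 CPM in KO GFP-low, against 29.2, 33.2, 30.9, 25.8 and 31.8 CPM in KO GFP-high cells, and 8.00, 7.26, 4.70, 6.63 and 5.25 CPM in WT GFP-low, against 35.7, 30.0, 28.6, 41.9 and 31.5 CPM in WT GFP-high cells. Neither overlapped between populations. Slc12a2 fell by 1.75 ± 0.11 in KO and by 1.67 ± 0.10 in WT mice (edgeR adjusted p = 5.83e-08 and 3.35e-07). Slc14a1 fell by 2.72 ± 0.18 in KO and by 2.40 ± 0.17 in WT mice (edgeR adjusted p = 8.46e-08 and 8.76e-07). Phosphate carriers moved apart, since Slc20a2 fell by 0.56 ± 0.11 and by 0.74 ± 0.16 whereas Slc20a1 rose in KO mice (0.88 ± 0.23). In WT mice Slc20a1 gave 0.81 ± 0.37 and passed with each mouse as a block (edgeR adjusted p = 0.000349), and without GFP-high mouse 1 (1.12) or GFP-low mouse 7 (0.98). The sodium bicarbonate cotransporter Slc4a4 did not pass (-0.02 ± 0.11 and 0.04 ± 0.14), and its sign turned without GFP-low mouse 5 (0.03) or 6 (0.04) in KO mice and without GFP-high mouse 3 (-0.01) or GFP-low mouse 6 (-0.04) in WT mice.

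The class of nucleotide sugar transporters, of the Golgi apparatus and endoplasmic reticulum, also held the sulfate donor transporter Slc35b2. Of its 13 members, 10 rose in KO and 8 in WT mice, with none called lower and medians of 0.61 and 0.45. With each mouse as a block, Slc35b3 was called lower in KO mice (-0.25, edgeR adjusted p = 0.0223). Slc35b1, known also as an ATP and ADP exchanger of the endoplasmic reticulum, had 198, 237, 260.2, 297 and 235 CPM in KO GFP-low, against 79.4, 62.4, 67.6, 76.6 and 76.0 CPM in KO GFP-high cells. Levels in WT mice were 274, 295, 226, 211 and 313 CPM in GFP-low, against 93.0, 101, 78.9, 57.5 and 74.4 CPM in GFP-high cells. All libraries of GFP-low cells were above those of GFP-high cells, and the rise was 1.77 ± 0.11 in KO and 1.70 ± 0.16 in WT mice (edgeR adjusted p = 7.90e-08 and 7.37e-06). The GDP-fucose transporter Slc35c1 rose by 1.55 ± 0.14 and 1.14 ± 0.17, and the UDP-galactose transporter Slc35a2 by 1.45 ± 0.17 and 1.15 ± 0.17. A smaller rise was that of the UDP-N-acetylglucosamine transporter Slc35a3 (0.55 ± 0.10 and 0.46 ± 0.13). Markers of goblet cells, which make much glycoprotein, moved with this class, summing over all 6 to 23698 to 51138 CPM in KO and 27410 to 68493 CPM in WT GFP-low libraries, against 1843 to 3640 CPM in KO and 1958 to 4910 CPM in WT GFP-high libraries. The 7 Paneth cell markers summed to 15012 to 78507 CPM in KO and 35720 to 166104 CPM in WT GFP-low libraries, against 9674 to 27483 and 9351 to 36465 CPM in KO and WT GFP-high libraries. The part of either in the class was not tested. Without WT GFP-low mice 3 and 8, whose Paneth transcripts were highest, 8 of the 13 rose and none was called lower in WT mice. The WT GFP-low libraries that remained still held 35720 to 69105 CPM of Paneth and 27410 to 43201 CPM of goblet markers, so that count is no test of their part.

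Mitochondrial carriers had 12 rises and 7 falls among 36 in KO and 8 rises and 5 falls in WT mice (medians 0.16 in each, which turn negative under library totals). Rises made up 33.3% in KO and 22.2% in WT mice, beside 26.2% and 22.0% of all entries. Falls made up 19.4% and 13.9%, beside 24.4% and 21.4%. The adenine nucleotide translocases differed. Slc25a4 (ANT1), the form known from heart and muscle, had 57.3, 86.0, 102, 84.1 and 76.9 CPM in KO GFP-low, against 107, 147, 158, 131 and 149.6 CPM in KO GFP-high cells. Its WT values were 80.6, 69.8, 67.0, 66.4 and 77.9 CPM in GFP-low, against 124, 153, 163, 129 and 124 CPM in GFP-high cells. Without overlap, it fell by 0.76 ± 0.15 in KO and by 0.94 ± 0.11 in WT mice. Slc25a5, the more abundant per kilobase of exon, did not pass (0.21 ± 0.09 and 0.18 ± 0.12), and under library totals its values turned to -0.05 and -0.18, while in KO mice it was called higher without GFP-low mouse 5 (0.22) and by DESeq2 (0.20). Slc25a3, the phosphate carrier of ATP synthesis, did not pass either (0.06 ± 0.12 and 0.14 ± 0.11).

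The largest mitochondrial rises were those of Slc25a45, a carrier of amino acid derivatives, with 61.0, 48.4, 35.7, 37.9 and 42.9 CPM in KO GFP-low, against 10.3, 6.54, 4.26, 8.49 and 9.66 CPM in KO GFP-high cells, and 43.4, 104, 62.0, 37.1 and 28.5 CPM in WT GFP-low, against 8.81, 10.9, 6.49, 3.49 and 4.12 CPM in WT GFP-high cells. The populations were separate, with a log2 fold change of 2.53 ± 0.22 in KO and 3.02 ± 0.39 in WT mice. Slc25a35, whose substrate is not settled, and the calcium-regulated ATP-magnesium and phosphate carrier Slc25a24 rose by 1.89 ± 0.25 and 1.95 ± 0.17 in KO and 1.79 ± 0.27 and 1.80 ± 0.11 in WT mice. The dicarboxylate carrier Slc25a10 rose by 0.59 ± 0.08 and 0.47 ± 0.10. Small falls were those of the iron carrier Slc25a28 (-0.29 ± 0.09 and -0.44 ± 0.13) and of Slc25a30 (-0.58 ± 0.12 and -0.46 ± 0.16). The KO call of Slc25a28 was lost without GFP-high mouse 5 (-0.26) or GFP-low mouse 3 (-0.25), and its WT call without GFP-low mice 3 and 8 (-0.38). The WT call of Slc25a30 was lost without GFP-high mouse 6, 7 or 8 or GFP-low mouse 1, 7 or 8, over a range of -0.55 to -0.37, and without GFP-low mice 3 and 8 (-0.39).

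Among 8 orphan members, mostly of the Slc35 family, 4 rose and 1 fell in KO and 3 rose and 1 fell in WT mice. Slc35f5 and Slc35e1 rose by 0.79 ± 0.13 and 0.76 ± 0.08 in KO and 0.94 ± 0.14 and 0.79 ± 0.10 in WT mice. Slc35e2 gave 0.40 ± 0.13 and 0.61 ± 0.13, with calls lost in both under library totals (0.15 and 0.24), and in KO mice without GFP-high mouse 5 or 6 or GFP-low mouse 2 or 4 (0.33 to 0.47 over all libraries left out). Of the genes that are no transporters, the scaffold Slc9a3r1 (NHERF1), which anchors brush border transporters, had 109 ± 19.6 CPM in KO GFP-low cells and 52.1 ± 7.52 CPM in KO GFP-high cells, a rise of 1.08 ± 0.13 (1.29 ± 0.20 in WT mice). The GFP-low table alone held 18 members, with group means between 1.04 and 9.43 CPM, among them Slc13a2, a citrate and succinate transporter, and Slc28a1, a pyrimidine nucleoside transporter. The GFP-high table alone held 5, among them the bile acid transporter Slc10a1, at 1.36 ± 0.697 CPM in KO and 1.04 ± 0.572 CPM in WT cells, and the amino acid transporter Slc38a4, at 2.14 ± 0.427 CPM in KO and 1.85 ± 0.456 CPM in WT cells. No comparison of populations was made for these.

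Transport genes outside the family were counted beside it, in KO and then WT mice. Of 19 ABC transporters, 10 and 9 rose and 3 and 2 fell, with medians of 0.57 and 0.55. Among 4 organic anion transporters of the Slco family, 3 rose and 1 fell in each genotype, and of 15 ion and water channels 4 and 2 rose and 5 and 6 fell, with medians of -0.02 and -0.10. Of 11 major facilitators (Mfsd genes and relatives), 6 and 3 rose and 3 and 2 fell, and of 9 mitochondrial carriers outside Slc25, 4 rose and 2 fell in each. Of 4 sodium pump genes, 1 rose in each and 1 fell in KO mice.

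The second comparison asked whether loss of Itgb7 was accompanied by a difference in solute carriers. No member passed in either population. In GFP-low cells 0 of 226 members were called by edgeR, where 0.00849% of all entries were called. There 17 members (7.52%) had an unadjusted p under 0.05, 6 higher and 11 lower in KO. So had 6.32% of all entries (345 higher and 399 lower). In GFP-high cells 0 of 213 were called, where 0.00% of all entries were called, and 22 had an unadjusted p under 0.05, 5 higher and 17 lower, as had 9.79% of all entries (565 higher and 585 lower). DESeq2 called 0 members in GFP-low and 2 in GFP-high cells, and of all entries it called 1 higher and 11 lower in GFP-low and 50 higher and 95 lower in GFP-high cells. The members' median log2 fold change, KO over WT, was -0.00336 in GFP-low and 0.00146 in GFP-high cells, and no member reached a log2 value of 1 in either direction. Of the 226 members in GFP-low cells 211 lay within 0.5 of 0, with a median SE of 0.18, and of the 213 in GFP-high cells 204 did, with a median SE of 0.15. A difference that misses the threshold is not shown to be absent.

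**Figure D4:**
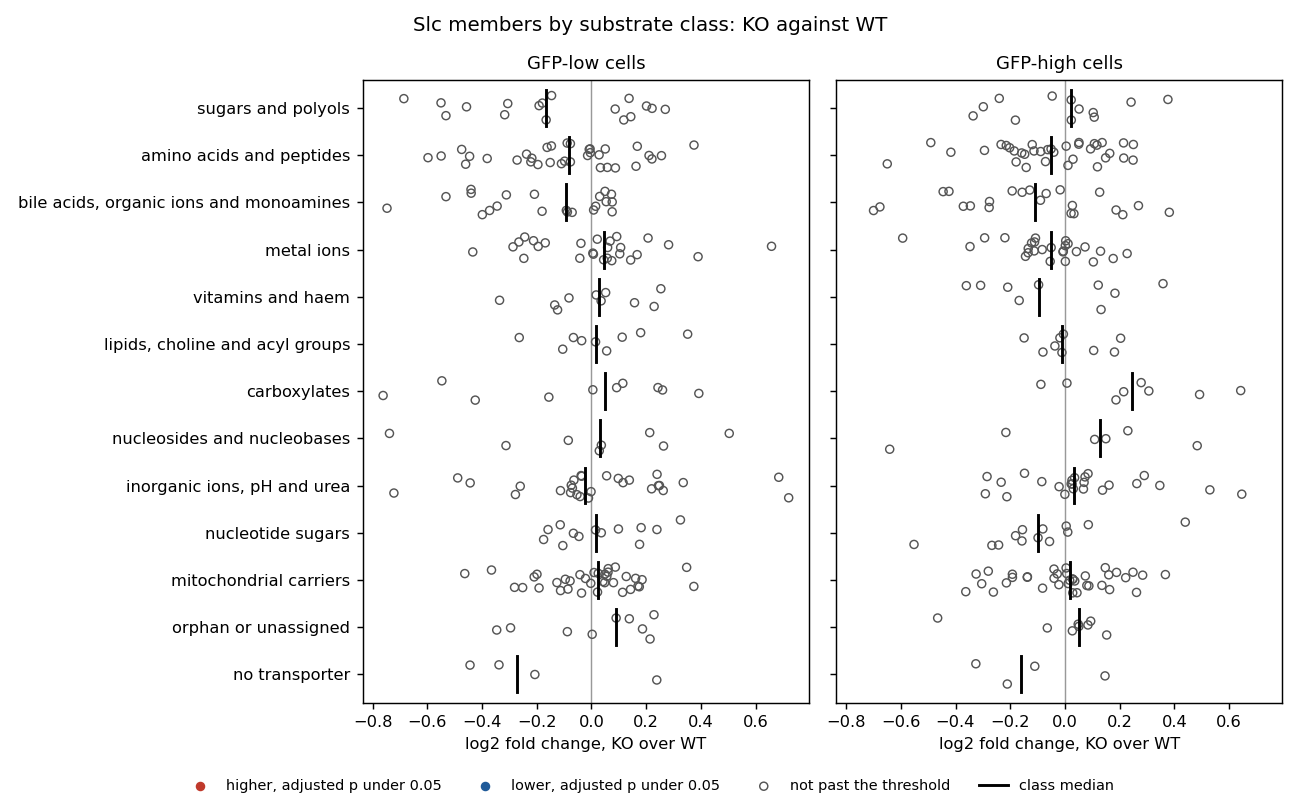
Log2 fold change of each solute carrier, KO over WT, in GFP-low (left) and GFP-high cells (right), by substrate class. Each open point is a gene that did not pass the threshold and the bar is the class median. All values lie between -0.76 and 0.72.

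Slc22a21, an organic cation and carnitine transporter known from the mouse, had the smallest p of all members in both populations. It had 6.28, 5.86, 6.24, 6.01 and 10.5 CPM in KO and 9.27, 16.2, 11.8, 11.5 and 9.84 CPM in WT GFP-low cells, and 6.38, 7.25, 7.16, 5.65 and 11.3 CPM in KO and 9.82, 13.6, 13.7, 11.5 and 12.1 CPM in WT GFP-high cells. KO mouse 6 was the highest KO library in each population and overlapped the WT range, while the other 4 KO libraries lay below it. The log2 fold change was -0.75 ± 0.20 in GFP-low cells (edgeR adjusted p = 0.731) and -0.68 ± 0.18 in GFP-high cells (edgeR adjusted p = 0.195). DESeq2 called it in GFP-high cells, with an adjusted p of 0.0346. Both populations came from the same mice, so these are not independent observations.

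Nucleoside transporters Slc29a2 and Slc29a1, which equilibrate nucleosides across membranes, were among the next in GFP-high cells. Slc29a2 had 6.30, 5.07, 5.93, 7.93 and 8.30 CPM in KO and 7.79, 9.74, 11.2, 10.8 and 13.03 CPM in WT GFP-high cells (-0.64 ± 0.17, edgeR adjusted p = 0.201, DESeq2 adjusted p = 0.0409). Slc29a1 had 67.8, 67.8, 67.7, 68.2 and 71.4 CPM in KO and 78.3, 80.2, 79.9, 82.8 and 78.2 CPM in WT GFP-high cells, without overlap and with a small difference (-0.22 ± 0.06, edgeR adjusted p = 0.248). In GFP-low cells their values were -0.31 ± 0.31 and 0.03 ± 0.16. The exchanger Slc26a3 gave 0.53 ± 0.16 in GFP-high cells (edgeR adjusted p = 0.247) and -0.26 ± 0.20 in GFP-low cells, and the serotonin transporter Slc6a4 -0.37 ± 0.12 and 0.08 ± 0.16. Groups of KO and WT GFP-high libraries did not overlap for 4 members, all lower in KO (Slc29a1, the metal importer Slc39a14, the sulfate donor transporter Slc35b2 and the oxoglutarate carrier Slc25a11), where 0.919% of all entries lay wholly lower and 0.936% wholly higher.

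**Figure D5:**
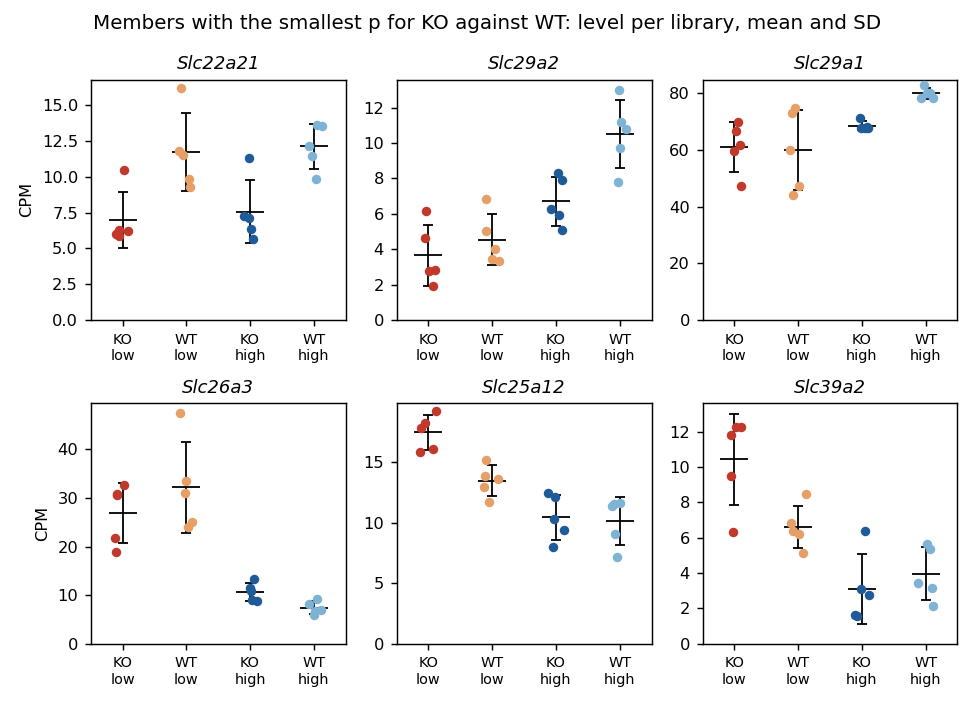
Level in CPM of 6 members with small p for KO against WT, in each library. Points are libraries, and the bar and whiskers are the mean and SD of 5. Slc22a21 was lower in 4 of 5 KO libraries in each population, and none of the 6 passed the edgeR threshold.

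In GFP-low cells the smallest p after Slc22a21 among transporters were those of Slc39a2, Slc25a12, Slc25a20 and Slc8b1. The zinc importer Slc39a2 had 6.32, 9.48, 12.3, 11.8 and 12.3 CPM in KO and 8.47, 6.83, 6.38, 6.23 and 5.13 CPM in WT GFP-low cells (0.66 ± 0.20). Slc25a12, the mitochondrial aspartate and glutamate carrier aralar, had 17.9, 18.2, 19.3, 16.1 and 15.9 CPM in KO and 11.7, 12.99, 13.6, 15.2 and 13.9 CPM in WT GFP-low cells (0.37 ± 0.11), wholly higher in KO, where 0.679% of all entries lay wholly higher. One member, Slc4a1ap, lay wholly lower, where 0.441% of all entries did. The carnitine and acylcarnitine carrier Slc25a20 gave -0.46 ± 0.16 and the mitochondrial sodium, calcium and lithium exchanger Slc8b1 0.68 ± 0.23. All had an edgeR adjusted p of at least 0.731.

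Among members that did not pass in GFP-low cells, negative values included those of Slc13a2 (-0.76 ± 0.32), Slc2a2 (-0.69 ± 0.27), Slc5a11 (-0.53 ± 0.27), Slc5a1 (-0.31 ± 0.13) and Slc51a (-0.40 ± 0.18), picked after their values were seen and no group of their own. Summed enterocyte markers lay in the same direction, with a median of 1671 CPM in KO and 2664 CPM in WT GFP-low libraries. Their part in these values was not tested.

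The third comparison asked whether the KO effect differed between populations, as the effect in GFP-low minus the effect in GFP-high cells. Of 208 members 0 passed (edgeR, where 0.00% of all entries were called; 0 by DESeq2), and 8 had an unadjusted p under 0.05, as had 353 of all 11296 entries. The smallest among transporters were those of Slc16a12, a creatine transporter (-0.91 ± 0.28), and Slc26a3 (-0.78 ± 0.27). The inositol transporter Slc5a3 (-0.65 ± 0.27), the pyrimidine nucleotide carrier Slc25a36 (-0.45 ± 0.19) and the monocarboxylate transporter Slc16a7 (-1.19 ± 0.52) followed. All had an edgeR adjusted p of 0.9999.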

How the data were processed

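RNA was sequenced from sorted crypt cells of 20 samples in 4 groups of 5, taken from the genotype and population in the labels. The authors deposited a table of expected counts per gene for each population, not normalized. The submitters' processing notes name the programs RSEM, Bowtie2 and TopHat2 and the mouse build mm10, without versions or roles. RSEM divides reads that match several genes. Of the deposited expected counts 13.7% were not whole, and all were rounded. The lowest mean count of an entry was 16.8 in the GFP-low and 17.0 in the GFP-high table, so lower genes were not analysed here. Library totals of 20900404 to 27838392 counts set the precision, and no libraries of a group agreed within counting noise.

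Each comparison was fitted on all entries in R 4.3.3 by edgeR 4.0.16 (quasi-likelihood test, TMM factors, filterByExpr with 10 as minimum count), with a Benjamini-Hochberg threshold of 0.05. Populations were compared over the 11296 entries of both tables. The main fits, that of the interaction included, held no term for the mouse. The pairing of populations therefore enters only in the fits with each mouse as a block. Standard errors come from the F statistic. CPM were scaled by TMM over all 20 libraries. Exon lengths and positions came from GENCODE M21 (GRCm38). The test was checked on simulated counts.

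Named members were, per class, the 3 largest rises and falls in WT mice among those called in both genotypes whose mean log2 CPM was 3 or more, textbook intestinal transporters, and for KO against WT and the interaction the 5 transporters with the smallest p. Members, classes and lists were chosen with earlier results of these data known. Alternatives were library totals, DESeq2 size factors, DESeq2 1.42.0, other filters, each library left out, and the replicate block. The labels give both populations of a mouse the same number, and deviations of same-numbered libraries from their group means correlated (r from 0.169 to 0.625, each the highest for its mouse, 10 of 10), so the numbers pair the populations. Values of a few single genes are not reported here.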

Additional observations from a re-analysis of the deposited data

Results flagged for a closer look

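Within groups of 5, the distance of 1 library from the nearest other exceeded Dixon's 95% critical value in 10 of the 316 groups of values tested (3.16%), where chance passes about 1 in 20. KO mouse 2 was far from the other KO mice in 6 of them. In GFP-low cells it had 50.2 CPM of the monocarboxylate transporter Slc16a1, against 38.1 to 41.6 CPM in the other KO mice, and 7.08 CPM of the fatty acid transporter Slc27a1, against 17.997 to 20.8 CPM. In GFP-high cells it had 20.5 CPM of Slc16a5 (others 9.37 to 12.5 CPM), 59.9 CPM of the heavy chain Slc3a2 (39.6 to 45.1 CPM), 20.8 CPM of the brush border light chain Slc7a9 (14.4 to 16.1 CPM) and 30.8 CPM of the zinc transporter Slc30a2 (46.2 to 51.1 CPM).

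KO mouse 6 was high for Slc22a21 in both populations, with 10.5 CPM in GFP-low cells, against 5.86 to 6.28 CPM in the other KO mice, and 11.3 CPM in GFP-high cells, against 5.65 to 7.25 CPM. It was also high for Slc29a1 in GFP-high cells, at 71.4 CPM beside 67.7 to 68.2 CPM. WT mouse 6 had 40.3 CPM of Slc6a19 in GFP-low cells, against 17.7 to 21.96 CPM in the other WT mice.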

How the results depend on the processing

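For GFP-low against GFP-high cells, DESeq2 size factors, DESeq2 itself, no filter and a mean of at least 100 counts left the counts of rises and falls within 1.5 times and the medians within the spread. Leaving out 1 library at a time gave 94 to 102 rises and 24 to 32 falls in KO mice, and 78 to 82 rises and 26 to 29 falls in WT mice. Without KO GFP-low mouse 2, 126 of the 131 KO calls were kept and 4 were new. Shares of all entries were not set beside these counts, so they describe the members alone. Library totals gave 77 rises, 48 falls and a median of 0.0906 in KO and 53 rises, 50 falls and a median of -0.0713 in WT mice. For KO against WT, library totals moved the median to 0.13 in GFP-low cells (all entries 0.14) and the interaction's to 0.15 (all entries 0.11), and leaving out single libraries took that of the interaction between 0.00035 and 0.0629. With the replicate block, which pairs the populations of a mouse, 107 members rose and 38 fell in KO and 99 rose and 31 fell in WT mice. It kept 131 of 131 and 110 of 111 calls. Of all entries, 3310 then rose and 3154 fell in KO, and 2925 rose and 2920 fell in WT mice. The numbers 3 and 6 shared by KO and WT mice do not pair them. A block on these numbers leaves every other library without a partner, so its values rest on mice 3 and 6 of each genotype. It gave 3 falls in GFP-low (Slc13a2 -1.80, Slc2a2 -1.69 and Slc28a1 -1.93) and 1 in GFP-high cells (Slc51a, -1.26), with a GFP-high median of -0.0648. Of all entries, it called 7 higher and 29 lower in GFP-low and 35 higher and 87 lower in GFP-high cells. DESeq2 gave 2 falls in GFP-high cells. Without secretory markers in the denominator, the share of counts was 1.38% in KO GFP-low, 1.29% in WT GFP-low, 1.24% in KO GFP-high and 1.21% in WT GFP-high cells, so that the WT GFP-low mean lay above the WT GFP-high mean in place of below it. Among members that did not pass, sign turned under library totals for Slc16a1 (-0.13 in KO, -0.31 in WT mice), Slc25a5 (-0.0510 and -0.18) and Slc4a4 in WT mice (-0.31). Without single libraries it turned for Slc4a4 (-0.10 to 0.0443 in KO, -0.0351 to 0.12 in WT mice) and Slc16a1 in WT mice (-0.0250 to 0.10). Where no cause is named, the cause was not tested. Fold changes of members near 1 CPM rest on few reads.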
